A study of Homo sapiens with 16 samples.

Results

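The mitochondrial ribosome, or mitoribosome, is the particle that translates the few proteins encoded by mitochondrial DNA, all of them subunits of the respiratory chain and ATP synthase. Its RNAs come from mitochondrial DNA, whereas its proteins are encoded by nuclear genes, made in the cytosol and imported. Genes named MRPL encode proteins of the large subunit, which joins amino acids and releases the chain through an exit tunnel into the inner membrane, and genes named MRPS encode proteins of the small subunit, which reads the mRNA. Many of the proteins have homologues in the bacterial ribosome, and many others are found only in mitochondria.

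The genes were chosen by symbol and level: symbols that begin with MRPL or MRPS followed by a digit, without a hyphen, with a mean of at least 1 FPKM over all 16 libraries. FPKM is fragments scaled by transcript length and library depth, so levels of different genes can be compared. Of 25270 genes in the deposited matrix, 80 symbols matched, not counting 1 left out for its hyphen, and 76 members remained after 4 fell below the level, 48 with MRPL and 28 with MRPS symbols. The symbols do not always give the subunit: the products of MRPS18A and MRPS30 sit in the large subunit, and that of MRPS36 is now placed in the 2-oxoglutarate dehydrogenase complex. MRPS18B was listed at 0 in all 16 libraries, and MRPL42P5, MRPL45P2 and MRPS31P5, pseudogenes by their symbols, had means of 0.079, 0.463 and 0.652 FPKM. The lowest mean among the members was the 2.67 FPKM of MRPS31. The mean level chose the members and is given as a description only.

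The cells were U2OS, an established human osteosarcoma line, and all libraries came from cells kept for 6 h with a compound or its solvent. The compounds were T5 and T4, said by the submitters to modulate alternative polyadenylation (which of several 3' ends an mRNA receives), and CPT, an abbreviation that the labels do not spell out. Doses were 0.5, 2, 5, 10 and 20 µM for each, every dose was sequenced as 1 library, and a single DMSO library served all 3 compounds, so no condition had a replicate. In DMSO, SPARC and COL1A1, matrix genes of bone-forming cells, had 226.9 and 300.6 FPKM, whereas COL1A2, the partner chain of COL1A1, had 0.051 FPKM. RUNX2 and ALPL had 2.86 and 2.54 FPKM, while SP7, BGLAP and IBSP, later osteoblast markers, were at or near 0. The 16 libraries summed to between 238669 and 285143 FPKM, and their depth relative to DMSO, estimated from the spacing of low values, lay between 0.639, at 5 µM T5, and 0.997, at 0.5 µM T5, and its part in the results was not tested.

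In DMSO the members spanned 5.14 FPKM for MRPS14, a homologue of bacterial S14, to 120.9 FPKM for MRPL33, a small homologue of bacterial L33, with a median of 27.4 FPKM. MRPL51 was close to MRPL33 at 118 FPKM. Summed over the 76 genes, the level was 2216.6 FPKM at 20 µM T5, 2012.9 FPKM at 20 µM T4 and 2600.3 FPKM at 20 µM CPT, against 2505.7 FPKM in DMSO. As a share of all FPKM in the library, the members made up 0.795% at 20 µM T5, 0.808% at 20 µM T4 and 0.914% at 20 µM CPT, against 1.05% in DMSO. These shares come from single libraries and have no error of their own. The libraries are bulk, so fewer cells with an RNA and less of it per cell cannot be told apart, and FPKM, relative to the rest of each library, does not show whether total RNA changed.

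The question put to the dose series was which members changed with the dose of each compound. For every compound, log2(FPKM + 1) of its 5 libraries and of DMSO was fitted on a log-like dose scale with limma over all 10600 genes with a mean of at least 1 FPKM, and the slope is given as the fitted change from 0 to 20 µM, ± its standard error. A member rose or fell where the limma adjusted p was below 0.05. With T5, 13 members rose, or 17.1%, and 32 fell, or 42.1%, against 18.2% and 34.5% of all tested genes. With T4, 6 rose, or 7.89%, and 33 fell, or 43.4%, against 14.5% and 32.4% of all tested genes. With CPT, 15 rose, or 19.7%, and 27 fell, or 35.5%, against 17.9% and 25.8% of all tested genes. The rising shares with T5 and CPT lay near those of all genes.

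The median fitted change of the members was -0.40 with T5, -0.42 with T4 and -0.13 with CPT, beside medians over all tested genes of -0.29, -0.27 and -0.14. The 3 trends share the DMSO library. Centring each library on its median moved the median of all tested genes by 0.67 with T5, 0.65 with T4 and 0.45 with CPT. The centred medians of all tested genes were thus above 0, at 0.38, 0.38 and 0.31. On the centred values 30 members rose (39.5%) and 17 fell (22.4%) with T5, against 41.4% and 18.8% of all tested genes. With T4, 28 rose (36.8%) and 14 fell (18.4%), against 40.5% and 17.4%, and with CPT 28 rose (36.8%) and 13 fell (17.1%), against 33.7% and 15.5%. The split between risers and fallers thus turned round with median centring, and on centred values the members' shares lay near those of all genes. Quantile normalization gave 13 members rising and 30 falling with T5, 8 and 31 with T4, and 12 and 25 with CPT. Shares of all genes are not given beside these counts, so they are not read as results about the members. Median changes of the members were then -0.40, -0.31 and -0.09 with T5, T4 and CPT, beside 0.07, 0.08 and 0.07 over all tested genes. Centring adds the same positive amount to every gene's fitted change, so no riser could change sign, and only the smaller falls could. The sign changed in 5 of the 32 fallers with T5 (MRPL9, MRPL38, MRPL47, MRPS11 and MRPS28), 4 of 33 with T4 (MRPL12, MRPL38, MRPS11 and MRPS28) and 3 of 27 with CPT (MRPL12, MRPL35 and MRPL47). The CPT counts moved when single libraries were left out: without 10 µM CPT no member passed, the limma adjusted p of MRPS31 being 0.0537. Without DMSO, 0.5 µM CPT or 5 µM CPT, 6, 5 and 8 members rose with CPT, and without 0.5 µM CPT 16 fell. With T4, 1 rose without 0.5 µM and 2 without 10 µM. With T5, 8 rose without 10 µM. Shares of all tested genes are not given for these smaller fits, so the losses are not shown to be particular to the members.

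**Figure D1:**
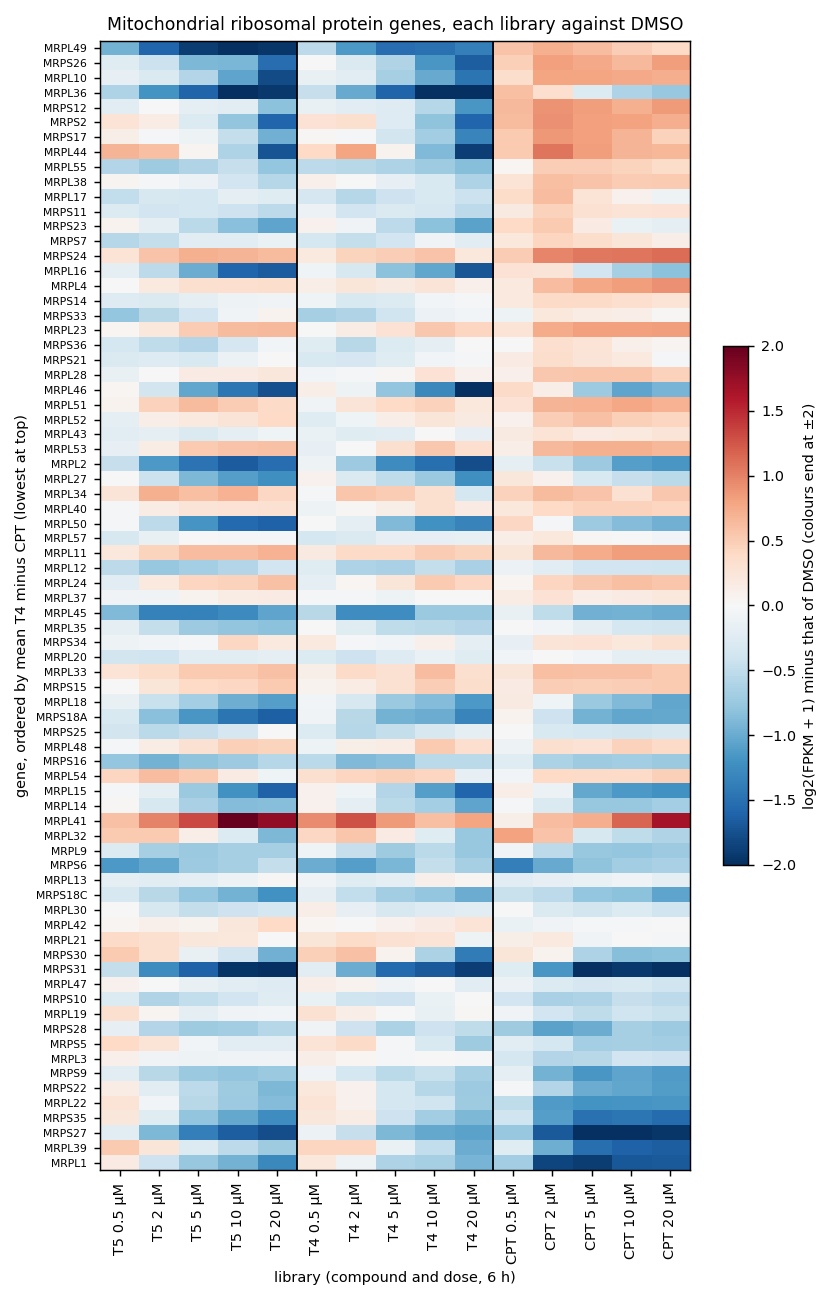
Each row is 1 of the 76 genes and each column 1 treated library, ordered by compound and dose; colour gives log2(FPKM + 1) minus that of the DMSO library, with colours ending at 2 in either direction. Rows run from the lowest to the highest mean of T4 minus CPT, and the 3 at the top, MRPL49, MRPS26 and MRPL10, are blue with T5 and T4 from 2 µM and red with CPT. MRPL36, next below them, is also blue with CPT from 5 µM, and the 2 at the bottom, MRPL39 and MRPL1, are lower with CPT than with T5 or T4 at each dose.

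MRPS31, a mitochondria-specific protein of the small subunit, was among the steepest fallers with every compound. It had 7.09 FPKM in DMSO and 4.81, 2.39, 1.63, 1.07 and 0.880 FPKM at rising doses of T5. With T4 it had 5.91, 3.05, 1.75, 1.52 and 1.19 FPKM, and with CPT 5.85, 2.62, 0.943, 1.12 and 0.961 FPKM. All 15 treated libraries lay below DMSO, and MRPS31 was the only member under 1 FPKM in any library. Its fitted change was -2.18 ± 0.21 with T5, -2.04 ± 0.22 with T4 and -2.32 ± 0.34 with CPT (adjusted p 0.00117, 0.00151 and 0.0105). A pseudocount of 1 understates the fold of a gene this low.

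MRPL36, the homologue of bacterial L36, fell with every compound and was lower with T5 and T4 than with CPT at each dose. Its levels were 28.8 FPKM in DMSO and 18.5, 12, 8.82, 5.89 and 6.84 FPKM with T5, and 20.7, 13.8, 8.82, 5.81 and 4.78 FPKM with T4. With CPT the series ran 44.2, 36.8, 23.6, 18.5 and 16.6 FPKM, so it was above DMSO at 0.5 and 2 µM and below it from 5 µM. Fitted changes were -2.06 ± 0.25 with T5, -2.45 ± 0.15 with T4 and -1.13 ± 0.35 with CPT (adjusted p 0.00167, 0.00121 and 0.0405).

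MRPL46, part of the central protuberance at the top of the large subunit, stood at 16.8 FPKM in DMSO and at 17.3, 12.9, 7.66, 5.57 and 4.29 FPKM with T5. The T4 libraries held 18.5, 15.7, 9.29, 6.28 and 3.35 FPKM and the CPT libraries 22.1, 18.6, 9.72, 7.56 and 8.40 FPKM. At 0.5 µM all 3 compounds were above DMSO, and from 5 µM all were below it. The fitted change was -1.95 ± 0.22 with T5, -2.10 ± 0.35 with T4 and -1.38 ± 0.35 with CPT (adjusted p 0.00153, 0.00442 and 0.0223). MRPL2, which sits near the peptidyl transferase centre, had 16.6 FPKM in DMSO and 15.3, 9.61, 6.33, 5.18 and 4.15 FPKM with T4. It changed by -1.65 ± 0.28 with T5, -1.92 ± 0.18 with T4 and -1.24 ± 0.15 with CPT, and every treated library was below DMSO.

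MRPS27, a pentatricopeptide repeat protein of the small subunit, reached its lowest levels at lower doses of CPT than of T5. It had 32.1 FPKM in DMSO and 27.4, 16.8, 11.8, 9.53 and 8.69 FPKM with T5. With T4 the values were 29.4, 23.0, 16.7, 15.3 and 14.8 FPKM, and with CPT 18.6, 9.38, 6.83, 7.36 and 7.63 FPKM. The fitted change was -1.93 ± 0.16 with T5, -1.20 ± 0.14 with T4 and -1.98 ± 0.41 with CPT (adjusted p 0.000996, 0.00174 and 0.0146). The call with CPT was lost without DMSO, at -1.40 with an adjusted p of 0.0527. Exons of MRPS27 overlap those of PTCD2 on the other strand, and since the sources used here do not give whether counting kept the strand, their reads may be mixed.

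MRPL39 and MRPL1, a mitochondria-specific large-subunit protein and the protein of the L1 stalk, fell with every compound and stood lower with CPT than with T5 or T4 at each dose. MRPL39 had 36.9 FPKM in DMSO and 31.1, 18.3, 12.3, 11.4 and 11.0 FPKM with CPT. With T5 it had 53.4, 43.7, 30.3, 25.3 and 22.1 FPKM, and with T4 50.3, 50.1, 33.5, 25.9 and 18.0 FPKM, so both lowest doses lay above DMSO. Its fitted change was -1.01 ± 0.29 with T5, -1.14 ± 0.36 with T4 and -1.84 ± 0.22 with CPT (adjusted p 0.0257, 0.0382 and 0.0105). MRPL1 had 30.2 FPKM in DMSO and 33.9, 22.4, 17.4, 15.2 and 11.8 FPKM with T5. Its T4 series was 34.9, 28.1, 19.4, 18.6 and 15.4 FPKM and its CPT series 18.3, 7.77, 7.39, 8.65 and 8.77 FPKM, nearly flat from 2 µM. MRPL1 changed by -1.42 ± 0.17 with T5, -1.10 ± 0.19 with T4 and -1.66 ± 0.48 with CPT. The CPT call of MRPL1 (adjusted p 0.0343) was lost without DMSO, 0.5, 5 or 10 µM CPT, with changes between -0.99 and -1.73.

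Among members that rose, MRPL41, a large-subunit protein also described as a partner of BCL2, had the largest fitted change. It had 16.8 FPKM in DMSO, and 25.7, 34.3, 43.4, 90.7 and 60.0 FPKM with T5. CPT gave 18.2, 26.1, 28.4, 38.6 and 55.1 FPKM. T4 gave 33.3, 41.8, 30.9, 25.8 and 29.6 FPKM, highest at 2 µM. All 15 treated libraries were above DMSO. The fitted change was 2.06 ± 0.34 with T5 and 1.61 ± 0.17 with CPT (adjusted p 0.00409 and 0.0105), and 0.36 ± 0.42 with T4, which did not pass (adjusted p 0.506).

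MRPL23 and MRPL24, homologues of bacterial proteins at the end of the exit tunnel, rose with every compound. MRPL24 had 51.7 FPKM in DMSO and 44.5, 59.6, 70.2, 71.3 and 78.3 FPKM with T5, 45.2, 53.1, 61.0, 74.7 and 68.8 FPKM with T4, and 52.9, 69.6, 75.2, 79.1 and 76.2 FPKM with CPT. It was below DMSO at 0.5 µM T5 and T4 and above it at 2 µM and more. Fitted changes of MRPL24 were 0.74 ± 0.15 with T5, 0.62 ± 0.16 with T4 and 0.66 ± 0.14 with CPT. MRPL23 had 28.9 FPKM in DMSO and reached 45.8 FPKM at 20 µM T5, 39.3 FPKM at 20 µM T4 and 52.2 FPKM at 20 µM CPT, with fitted changes of 0.75 ± 0.10, 0.55 ± 0.12 and 0.85 ± 0.18.

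MRPL53, found at the base of the L7/L12 stalk, had 33.2 FPKM in DMSO and 50.3 FPKM at 20 µM T5, 42.2 FPKM at 20 µM T4 and 52.9 FPKM at 20 µM CPT. MRPL53 changed by 0.79 ± 0.15 with T5, 0.59 ± 0.17 with T4 and 0.73 ± 0.19 with CPT. MRPL48 of the central protuberance rose by 0.54 ± 0.10 with T5, 0.51 ± 0.15 with T4 and 0.51 ± 0.15 with CPT, with 48.5 FPKM at 20 µM T5, 45.2 FPKM at 20 µM T4 and 46.5 FPKM at 20 µM CPT, against 35.5 FPKM in DMSO. The T4 calls of MRPL24, MRPL48 and MRPL53 were lost without 0.5 µM T4 or without 10 µM T4, with changes between 0.39 and 0.52.

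The CPT risers also included MRPS24, homologue of bacterial S3 at the mRNA entry, MRPL4, which lines the exit tunnel, and MRPL11 at the base of the stalk. MRPS24 had 72.3 FPKM in DMSO and 104, 143, 152, 153 and 158 FPKM with CPT, against which T5 gave 87.6, 108, 119, 116 and 112 FPKM and T4 82.6, 98.3, 102, 107 and 83.7 FPKM. All 15 treated libraries were above DMSO, and the fitted change was 0.65 ± 0.16 with T5 and 1.05 ± 0.22 with CPT, while 0.33 ± 0.20 with T4 did not pass (adjusted p 0.202). Without DMSO the CPT change of MRPS24 was 0.68. Annotation places a read-through transcript with URGCP over MRPS24 on the same strand. MRPL4 had 31.4 FPKM in DMSO and 36.2, 48.8, 54.6, 57.0 and 60.3 FPKM with CPT, with fitted changes of 0.42 ± 0.10 with T5 and 0.95 ± 0.13 with CPT, and 0.13 ± 0.12 with T4, which did not pass. MRPL11 changed by 0.69 ± 0.11 with T5, 0.47 ± 0.13 with T4 and 0.87 ± 0.16 with CPT.

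**Figure D2:**
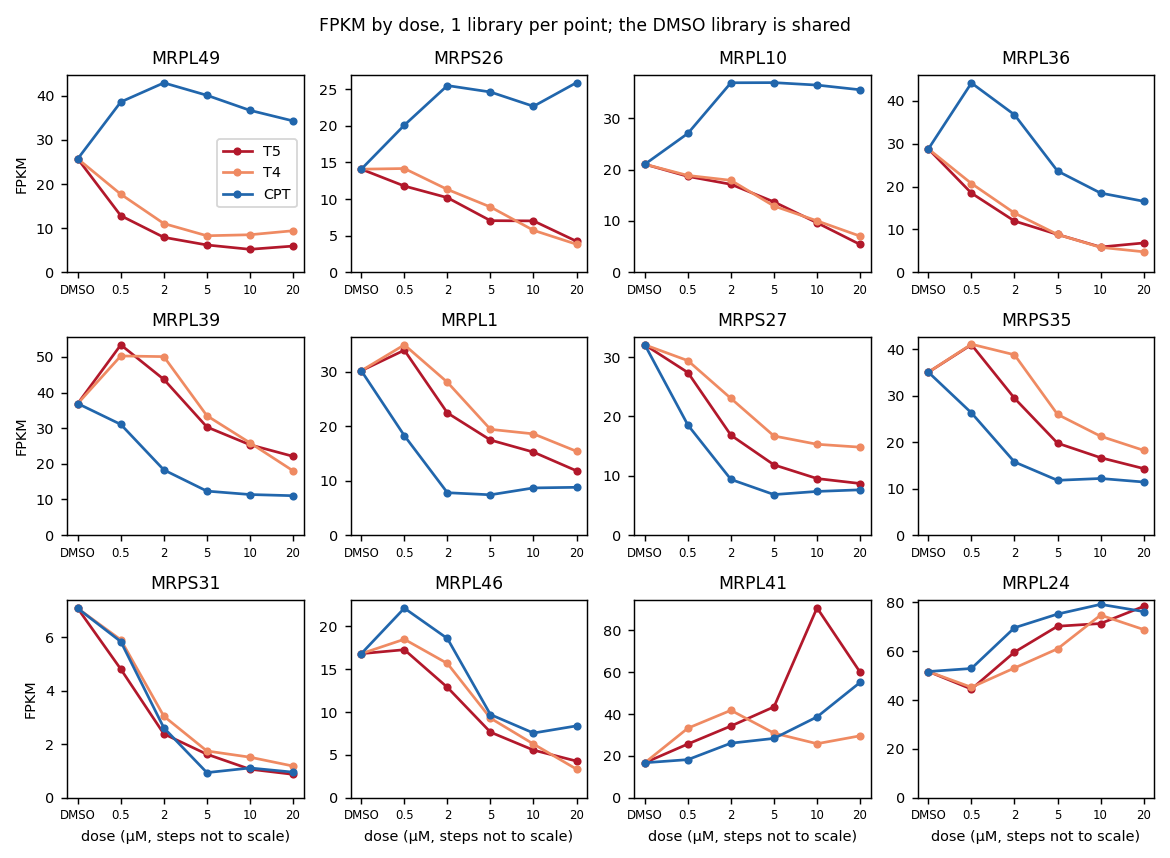
FPKM of 12 members (y axis, from 0) against dose, DMSO first and then 0.5 to 20 µM, with 1 library per point and the DMSO library shared by the 3 lines of each panel. MRPL49, MRPS26 and MRPL10 go down with T5 and T4 and stay above DMSO with CPT, MRPL39, MRPL1, MRPS27 and MRPS35 are lowest with CPT, and MRPL41 peaks at 90.7 FPKM at 10 µM T5.

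MRPS18A, MRPS18B and MRPS18C are paralogues of 1 bacterial protein, S18, and the MRPS18A product sits in the large subunit. With MRPS18B listed at 0 throughout, the other 2 could be followed. MRPS18A had 22.4 FPKM in DMSO and 17.9, 12, 9.43, 7.47 and 6.51 FPKM with T5, 21.2, 14.9, 11.2, 10.8 and 8.34 FPKM with T4, and 23.5, 16.5, 11.2, 10.4 and 10.6 FPKM with CPT. MRPS18C had 24.8 FPKM in DMSO and 19.7, 16.6, 14.2, 12.3 and 10.1 FPKM with T5, 21.8, 17.3, 14.9, 14.2 and 12 FPKM with T4, and 17.9, 17.0, 14.2, 13.6 and 11.4 FPKM with CPT. Both fell with every compound, MRPS18A by -1.70 ± 0.13, -1.38 ± 0.15 and -1.27 ± 0.21 and MRPS18C by -1.15 ± 0.11, -0.98 ± 0.12 and -0.94 ± 0.15 with T5, T4 and CPT in that order.

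By symbol, 18 of 48 MRPL genes fell (37.5%) and 11 rose (22.9%) with T5. With T4, 19 fell (39.6%) and 5 rose (10.4%), and with CPT 17 fell (35.4%) and 13 rose (27.1%). Of 28 MRPS genes, 14 fell (50%) and 2 rose (7.14%) with T5. With T4, 14 fell (50%) and 1 rose (3.57%), and with CPT 10 fell (35.7%) and 2 rose (7.14%). Of all tested genes, 34.5%, 32.4% and 25.8% fell and 18.2%, 14.5% and 17.9% rose with T5, T4 and CPT. With T5 both MRPL shares lay near these. The same shares of all tested genes stand beside the counts of the groups that follow. The 2 MRPS risers with T5, and also with CPT, were MRPS15 and MRPS24, and the 1 with T4 was MRPS15, a homologue of bacterial S15. Median fitted changes were -0.28, -0.25 and -0.12 for MRPL and -0.52, -0.61 and -0.27 for MRPS genes with T5, T4 and CPT, and all 6 medians turned positive on the centred values. With MRPS18A and MRPS30 counted in the large subunit, a grouping made after the values were seen, 20, 20 and 19 of 50 large-subunit genes fell and 12, 13 and 8 of 26 in the small-subunit group. The medians were then -0.32, -0.32 and -0.15 for the large and -0.44, -0.50 and -0.06 for the small subunit, so with CPT their order turned round. The difference between subunits was not tested.

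Around the peptidyl transferase centre, MRPL2, MRPL16 and MRPL27 fell with all 3 compounds, while MRPL3, close to the same centre, passed with none (-0.13 ± 0.09 with T5, -0.08 ± 0.09 with T4 and -0.32 ± 0.20 with CPT). MRPL16 had 5.03 FPKM at 20 µM T5, 4.85 FPKM at 20 µM T4 and 9.91 FPKM at 20 µM CPT, against 18.2 FPKM in DMSO. MRPL27 had 18.6 FPKM at 20 µM T5, 18.5 FPKM at 20 µM T4 and 30.6 FPKM at 20 µM CPT, against 44.7 FPKM in DMSO. On centred values 3, 3 and 1 of these 4 genes fell with T5, T4 and CPT, and 1, 1 and 0 rose.

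The 5 genes of the L7/L12 stalk, where translation factors dock, went in both directions. With CPT 4 rose (MRPL10, MRPL11, MRPL53 and MRPL54) and MRPL12, the L7/L12 homologue, changed by -0.42 ± 0.10, a fall whose sign turned on centring. With T4, MRPL11 and MRPL53 rose and MRPL10 and MRPL12 fell, MRPL12 again not on centred values, and with T5 the same 2 rose and MRPL10 fell by -1.64 ± 0.28. Of 6 central protuberance genes, 3 rose and 3 fell with T5, 1 rose and 3 fell with T4, and 2 rose and 2 fell with CPT, MRPL18 and MRPL46 falling with every compound, and on centred values 3, 3 and 4 rose and 2, 2 and 1 fell with T5, T4 and CPT. Of 7 exit tunnel genes, 2 rose with each compound, MRPL23 and MRPL24, and 2, 2 and 3 fell with T5, T4 and CPT, MRPL22 and MRPL39 each time and MRPL45, which anchors the ribosome to the membrane, with CPT, while on centred values 3, 2 and 2 rose and 0, 0 and 2 fell.

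The 9 genes MRPS22, MRPS23, MRPS25, MRPS26, MRPS27, MRPS31, MRPS33, MRPS34 and MRPS35 encode mitochondria-specific proteins of the small subunit. Of these, 6 fell with T5, 6 with T4 and 4 with CPT, against 34.5%, 32.4% and 25.8% of all tested genes. None rose on the deposited values. On centred values 4, 3 and 4 fell and 3, 2 and 2 rose. The list first held 11 genes, of which 8, 7 and 5 fell and none rose; MRPS30, a large-subunit protein, and MRPS28, a homologue of bacterial S1, were left out after the values were seen. MRPS22, MRPS27, MRPS31 and MRPS35 fell with all 3 compounds. MRPS26 fell by -1.42 ± 0.19 with T5 and -1.67 ± 0.25 with T4, and its 0.66 ± 0.23 with CPT just missed the threshold (adjusted p 0.0554). Of 7 tested genes of the mRNA channel, decoding site and platform of the small subunit, 3, 4 and 2 fell and 1 rose, MRPS15, with T5, T4 and CPT. MRPS18A, which the list first held as well, fell with each. MRPS2 fell by -1.59 ± 0.39 with T5 and -1.61 ± 0.43 with T4 but had 0.59 ± 0.27 with CPT, which did not pass. MRPS12, whose bacterial homologue S12 governs decoding accuracy, fell by -0.97 ± 0.23 with T4, while -0.59 ± 0.23 with T5 and 0.63 ± 0.26 with CPT did not pass. On centred values 1, 0 and 0 of these 7 fell and 2, 2 and 4 rose with T5, T4 and CPT.

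Genes that build or serve the mitoribosome were followed beside its proteins. Of 19 assembly and rRNA modification factors, none rose on the deposited values and 15 fell with T5, 15 with T4 and 10 with CPT, with medians of -1.66, -1.59 and -0.88. The falling shares were 78.95%, 78.95% and 52.6%, against 34.5%, 32.4% and 25.8% of all tested genes. Centring left 15, 15 and 8 falling and 2 rising with each compound. Of all tested genes, 18.8%, 17.4% and 15.5% fell and 41.4%, 40.5% and 33.7% rose on centred values. MTG2, a GTPase of large-subunit assembly, had 0.802 FPKM at 20 µM T5, 1.0 FPKM at 20 µM T4 and 8.76 FPKM at 20 µM CPT, against 8.42 FPKM in DMSO. RNMTL1, an older symbol of the rRNA methyltransferase gene MRM3, had 0.428 FPKM at 20 µM T5, 0.364 FPKM at 20 µM T4 and 6.54 FPKM at 20 µM CPT, against 4.38 FPKM in DMSO. NOA1, a GTPase needed for the small subunit, had 1.88 FPKM at 20 µM T5, 1.93 FPKM at 20 µM T4 and 5.22 FPKM at 20 µM CPT, against 11.8 FPKM in DMSO. METTL17, a small-subunit assembly factor, did not pass with any compound (0.11 ± 0.11 with T5, 0.06 ± 0.13 with T4 and 0.24 ± 0.12 with CPT).

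Of 14 tested translation factors of mitochondria, 2 rose (14.3%) and 4 fell (28.6%) with each compound. On centred values 4, 4 and 2 rose and 2, 3 and 2 fell with T5, T4 and CPT. TUFM, the elongation factor Tu, and SLIRP, an RNA-binding partner of LRPPRC, were the 2 that rose: TUFM had 106.7 FPKM at 20 µM T5, 92.1 FPKM at 20 µM T4 and 115.2 FPKM at 20 µM CPT, against 68.1 FPKM in DMSO. TACO1, a translational activator of a cytochrome oxidase subunit, changed by -2.73 ± 0.21 with T5 and -2.61 ± 0.19 with T4, and its -0.73 ± 0.26 with CPT did not pass. Of 6 mitoribosome proteins under other symbols, 1 rose and 2 fell with T5, none rose and 1 fell with T4, and 3 rose and none fell with CPT, and on centred values 3 rose and none fell with each. ICT1, a peptidyl-tRNA hydrolase built into the large subunit, fell to 16.1 FPKM at 20 µM T5 and 12.8 FPKM at 20 µM T4 and rose to 55.7 FPKM at 20 µM CPT, against 30.1 FPKM in DMSO, the falls not passing on centred values. Of 3 genes for transcription of mitochondrial DNA, 2, 2 and 1 fell with T5, T4 and CPT, TFB2M each time.

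**Figure D3:**
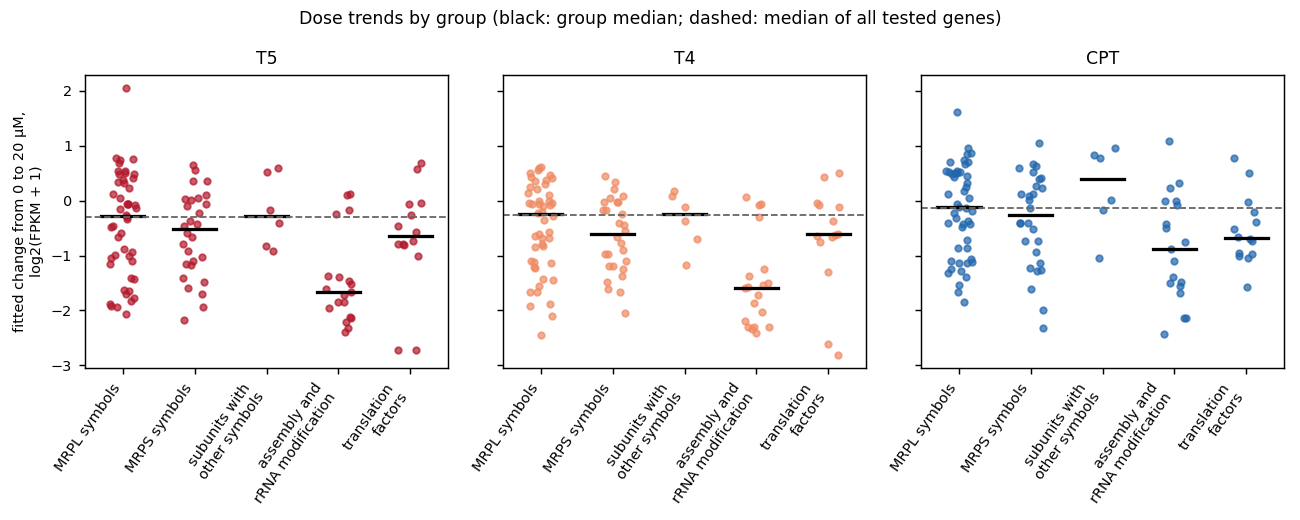
Fitted change from 0 to 20 µM in log2(FPKM + 1) for each gene (points) of 5 groups, in a panel each for T5, T4 and CPT; black bars are group medians and the dashed line is the median of all tested genes. Assembly and rRNA modification factors have medians of -1.66 with T5, -1.59 with T4 and -0.88 with CPT, and the MRPL and MRPS genes spread on both sides of 0.

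At matched doses the compounds were set against each other as the mean difference in log2(FPKM + 1) over the 5 shared doses, with dose as a block and without the DMSO library. For T5 minus CPT, 16 members were higher, or 21.1%, and 37 lower, or 48.7%, against 25.0% and 37.6% of all tested genes. For T4 minus CPT, 14 were higher, or 18.4%, and 37 lower, or 48.7%, against 28.3% and 36.9% of all tested genes. The 2 comparisons share the CPT libraries. Leaving out any 1 dose left 11 to 16 members higher and 30 to 38 lower for T5 minus CPT, and 13 to 15 higher and 30 to 37 lower for T4 minus CPT. Without the dose block, a fit that ignores the pairing by dose, 5 were higher and 22 lower for T5 minus CPT. Shares of all tested genes are not given for these alternative fits. Median centring moved the median of all tested genes by 0.19 for T5 minus CPT and gave 21 members higher (27.6%) and 25 lower (32.9%) there, against 37.6% and 23.8% of all tested genes. For T4 minus CPT centring moved that median by 0.09. It gave 16 members higher (21.1%) and 28 lower (36.8%), against 32.1% and 28.4% of all tested genes.

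MRPL49, a large-subunit protein without a bacterial homologue, had the lowest difference in both. It had 12.8, 7.92, 6.18, 5.20 and 5.93 FPKM with T5, 17.7, 11.0, 8.28, 8.50 and 9.41 FPKM with T4, and 38.6, 42.9, 40.1, 36.7 and 34.3 FPKM with CPT, beside 25.7 FPKM in DMSO. Every T5 and T4 library lay below DMSO and every CPT library above it. T5 minus CPT was -2.26 ± 0.16 and T4 minus CPT -1.77 ± 0.15 (adjusted p 0.000173 and 0.000419). The exons of MRPL49 overlap those of FAU and SYVN1 on the opposite strand, so its level may include their reads.

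MRPS26, a mitochondria-specific small-subunit protein, and MRPL10, the stalk base that carries MRPL12, followed the same order. MRPS26 had 11.8, 10.2, 7.05, 7.01 and 4.23 FPKM with T5, 14.2, 11.3, 8.91, 5.73 and 3.82 FPKM with T4, and 20.1, 25.5, 24.6, 22.7 and 25.9 FPKM with CPT. MRPL10 had 18.7, 17.1, 13.7, 9.64 and 5.41 FPKM with T5, 18.9, 17.9, 12.9, 10.0 and 7.04 FPKM with T4, and 27.1, 36.9, 37.0, 36.5 and 35.6 FPKM with CPT. Neither gene's T5 or T4 range overlapped its CPT range. Differences were -1.51 ± 0.22 and -1.45 ± 0.27 for MRPS26 and -1.45 ± 0.27 and -1.38 ± 0.23 for MRPL10, for T5 and T4 in turn, and MRPL36, given above, was lower by -1.35 ± 0.08 and -1.37 ± 0.09.

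In the other direction, MRPL39 was higher than with CPT by 1.05 ± 0.08 with T5 and by 1.05 ± 0.14 with T4, and MRPL1 by 0.91 ± 0.14 with T5 and 1.14 ± 0.15 with T4, at all 5 doses each. MRPS35, a mitochondria-specific small-subunit protein, had 41.0, 29.5, 19.8, 16.7 and 14.3 FPKM with T5, 41.1, 38.8, 26.0, 21.3 and 18.2 FPKM with T4, and 26.3, 15.7, 11.8, 12.2 and 11.4 FPKM with CPT. The difference of MRPS35 was 0.58 ± 0.09 for T5 minus CPT and 0.87 ± 0.11 for T4 minus CPT, higher at all 5 doses. MRPS27 was higher by 0.51 ± 0.10 with T5 and 0.97 ± 0.10 with T4. MRPL22, which lines the exit tunnel, had 9.98, 7.71, 5.21, 4.51 and 3.99 FPKM with T5, 9.96, 8.66, 6.11, 5.90 and 4.56 FPKM with T4, and 5.37, 3.12, 2.95, 3.01 and 3.04 FPKM with CPT, a difference of 0.66 ± 0.12 for T5 and 0.82 ± 0.12 for T4. For MRPL39, MRPL1, MRPS35, MRPS27 and MRPL22 alike, the T5 and T4 ranges overlapped the CPT range across doses. Without the dose block the T5 calls of MRPS35 and MRPL22 were lost (limma adjusted p 0.167 and 0.0521).

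**Figure D4:**
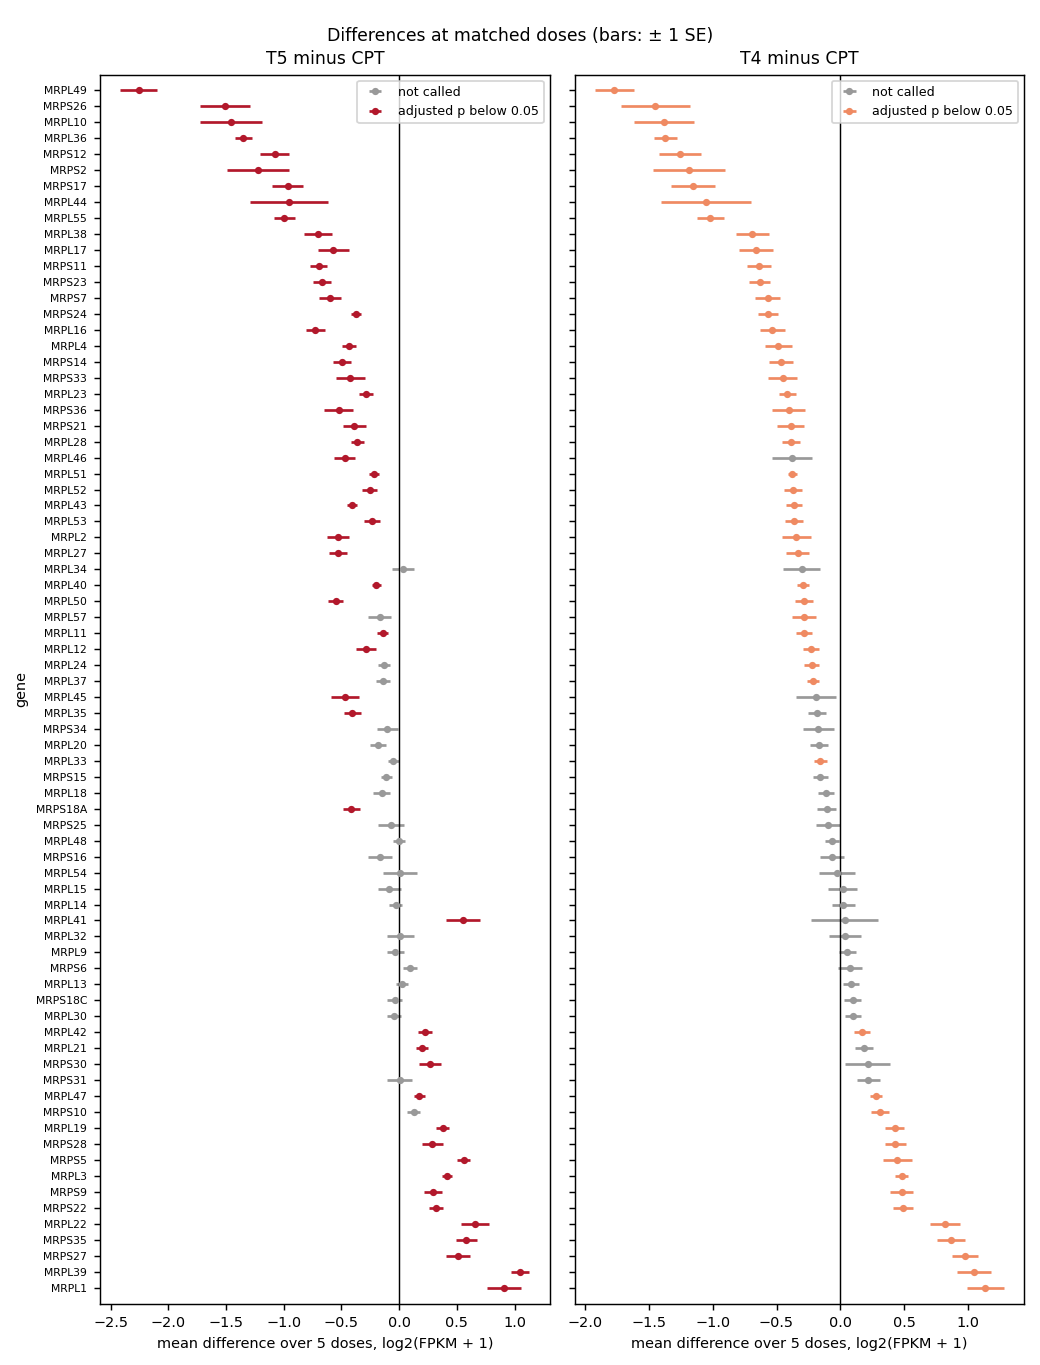
Mean difference over 5 matched doses in log2(FPKM + 1) for all 76 genes, T5 minus CPT on the left and T4 minus CPT on the right, with bars of 1 standard error; genes run from the lowest T4 minus CPT at the top, and grey points did not pass. Differences run from -2.26 for MRPL49 to 1.05 for MRPL39 with T5 and from -1.77 for MRPL49 to 1.14 for MRPL1 with T4.

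Between T5 and T4, 6 members were higher with T5, or 7.89%, and 15 lower, or 19.7%, against 6.05% and 26.5% of all tested genes. MRPL49 was lower with T5 by -0.49 ± 0.05, MRPS27 by -0.47 ± 0.08, MRPS18A by -0.31 ± 0.05 and MRPS35 by -0.29 ± 0.06, each at all 5 doses. MRPL34, homologue of bacterial L34, was higher with T5 by 0.34 ± 0.09, MRPS24 by 0.19 ± 0.05, MRPS17, homologue of bacterial S17, by 0.19 ± 0.05, and MRPL51 by 0.16 ± 0.04, also at all 5 doses. The other 55 members did not pass, with differences of -0.19 to 0.52, and this does not show that the compounds act alike on them. For MRPL36 the difference was 0.02 (95% interval -0.19 to 0.24), for MRPL10 -0.07 (-0.22 to 0.07) and for MRPL39 0.00 (-0.16 to 0.16). Median centring moved the median of all tested genes by 0.10 and gave 21 members higher (27.6%) and 3 lower (3.95%), against 24.7% and 11.0% of all tested genes. No member passed without the dose block, where the limma adjusted p was 0.97 for each of the 8 named genes. That fit ignores the pairing by dose. Without the 2 µM pair 1 member was higher and 7 lower, without the 5 µM pair 2 and 9, without the 10 µM pair 2 and 9, and without the 20 µM pair 3 were higher. Shares of all tested genes are not given for the fits without the block or without a pair. The losses are thus not shown to be particular to the members.

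The stretch of genome that a member's transcript covers was set beside these values, from the main transcript in GENCODE 29. Of 25 members under 5000 bp, none was higher and 19 were lower in T4 minus CPT, with a median of -0.36, beside -0.34 for all tested genes of that span. Of those genes, 5.28% were higher and 62.2% lower. Of 36 members between 5000 and 20000 bp, 4 were higher and 18 lower, against 6.35% and 62.6% of all tested genes of that span, with a median of -0.20 beside -0.34. Of 15 members over 20000 bp, 10 were higher and none lower, against 44.9% and 18.0% of all tested genes of that span, with a median of 0.45 beside 0.17. For T5 minus CPT the 3 classes held 1 and 17, 5 and 19, and 10 and 1 members higher and lower. The shares of all tested genes were 9.28% and 51.0%, 6.58% and 60.9%, and 38.1% and 22.4%. Across the 76 members, which share the same libraries, Spearman's rho of span with the difference was 0.48 for T5 minus CPT and 0.59 for T4 minus CPT, beside 0.51 and 0.60 across the 10036 tested genes with a span.

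With the dose trend, rho of span was -0.25 for T5, -0.12 for T4 and -0.50 for CPT across members, beside -0.20, -0.12 and -0.42 across all tested genes. The longest members by span were MRPS28 with 111555 bp, MRPS27 with 100853 bp, MRPL1 with 90271 bp, MRPL48 with 77296 bp and MRPS6 with 69512 bp. With CPT, MRPS27 and MRPL1 of these fell and MRPL48 rose, while MRPS28 (-0.51 ± 0.35) and MRPS6 (-0.13 ± 0.49) did not pass. Of the other members described above, MRPS31 covers 42039 bp and MRPL39 21862 bp, whereas MRPL41 covers 1357 bp and MRPL36 1449 bp. With CPT, 9 members under 5000 bp rose and 5 fell, against 40.3% and 8.34% of all tested genes of that span. Over 20000 bp 1 member, MRPL48, rose and 9 fell, against 8.87% and 35.05% of all tested genes. The values of rho for the members lay close to those for all tested genes, and they are given as a description.

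**Figure D5:**
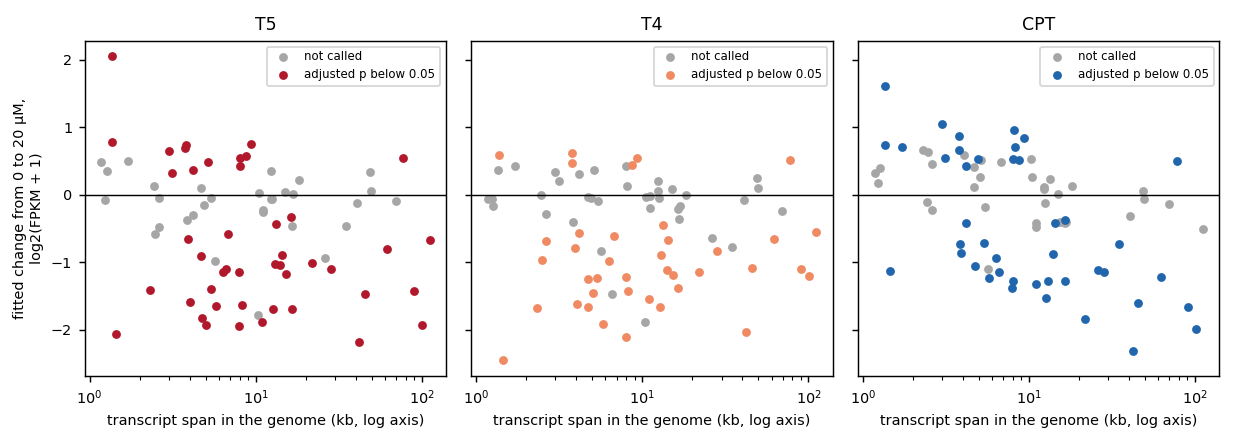
Fitted change from 0 to 20 µM in log2(FPKM + 1) against transcript span in kb on a log axis, 1 point per member, in a panel each for T5, T4 and CPT; coloured points passed the threshold. With CPT the points over 20 kb lie mostly below 0: 9 of the 15 members of that span fell and 1 rose. Of all tested genes of that span, 35.05% fell and 8.87% rose.

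Promoter sequence was read from RefSeq (GRCh38.p14) as the 250 bases before the annotated start, which 67 of the 76 members had. Nuclear genes for mitochondrial proteins are known targets of NRF1 and of ETS factors such as GABPA, and YY1 sites are frequent near their starts. The motif GCGCANGC (NRF1) matched on either strand in 20 of 67 member promoters, or 29.9%, against 20.3% of tested genes and 10.9% of all 27305 promoters. CCGGAAG (ETS) matched in 22, or 32.8%, against 17.4% and 8.82%, and AAGATGGCG (YY1) in 3, or 4.48%, against 1.14% and 0.641%. In all 37 members held at least 1 of the 3 motifs. A match is a string of letters and was not tested as a site.

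The 4 promoters below are those of the 2 lowest and the 2 highest called members in T4 minus CPT that hold a match. A match in each was therefore fixed by the choice. They read 5' to 3' along the gene's strand, with matches in capitals. MRPS26 lies at chr20:3045802-3046051 on the plus strand and MRPL36 at chr5:1799838-1800087 on the minus strand. MRPS35 lies at chr12:27710582-27710831 and MRPL22 at chr5:154940823-154941072, both on the plus strand.
MRPS26: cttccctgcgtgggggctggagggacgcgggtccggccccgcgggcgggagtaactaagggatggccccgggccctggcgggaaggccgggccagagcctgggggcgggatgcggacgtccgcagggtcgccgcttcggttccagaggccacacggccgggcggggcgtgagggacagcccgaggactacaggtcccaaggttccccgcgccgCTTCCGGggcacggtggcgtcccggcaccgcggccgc
MRPL36: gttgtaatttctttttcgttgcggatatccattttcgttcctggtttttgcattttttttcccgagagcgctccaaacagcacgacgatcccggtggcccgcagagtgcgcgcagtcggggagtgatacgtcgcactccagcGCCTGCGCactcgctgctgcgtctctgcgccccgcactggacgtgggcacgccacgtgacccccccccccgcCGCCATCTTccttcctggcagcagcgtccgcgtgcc
MRPS35: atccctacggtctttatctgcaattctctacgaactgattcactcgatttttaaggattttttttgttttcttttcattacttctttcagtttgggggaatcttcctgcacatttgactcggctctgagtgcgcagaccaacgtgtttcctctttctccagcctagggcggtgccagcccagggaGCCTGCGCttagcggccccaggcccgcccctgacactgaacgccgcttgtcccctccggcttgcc
MRPL22: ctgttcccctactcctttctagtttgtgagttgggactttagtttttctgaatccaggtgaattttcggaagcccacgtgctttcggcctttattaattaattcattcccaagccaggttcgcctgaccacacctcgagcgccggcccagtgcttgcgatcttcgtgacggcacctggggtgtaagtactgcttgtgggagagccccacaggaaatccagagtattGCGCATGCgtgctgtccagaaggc

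The capitals of MRPS26 are a reverse-complement ETS match that begins 37 bases before the start. In MRPL36 a reverse-complement NRF1 match begins 108 bases before the start and a reverse-complement YY1 match 36 bases before it. MRPS35 has a reverse-complement NRF1 match at 65 bases and MRPL22 an NRF1 match as written at 24 bases. NRF1 letters thus occur both before MRPL36, lower with T5 and T4 than with CPT, and before MRPS35 and MRPL22, which were higher.

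Single libraries at 20 µM were also set against DMSO, with no error since each side is 1 library. At least 2-fold lower on the log2(FPKM + 1) scale were 21 members with T5, 21 with T4 and 13 with CPT, against 26.5%, 22.9% and 21.0% of all tested genes, while the members' shares were 27.6%, 27.6% and 17.1%. Not every member followed its dose in 1 direction. A rule chosen after the values were seen, a level at 0.5 to 10 µM at least 1.5-fold above both DMSO and 20 µM in FPKM + 1, picked 3 members with T5 (MRPL41, MRPL44 and MRPL54), 2 with T4 (MRPL44 and MRPS30) and 3 with CPT (MRPL17, MRPL32 and MRPL36), against 4.89%, 4.71% and 4.35% of all tested genes.

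MRPL44, an RNase III-like protein near the exit tunnel, had 11.6 FPKM in DMSO and 19.2, 18.2, 12.1, 7.25 and 2.82 FPKM with T5, 15.7, 20.8, 12.2, 5.82 and 2.44 FPKM with T4, and 17.1, 25.5, 21.5, 19.3 and 19.0 FPKM with CPT. It was above DMSO at 0.5 µM of each compound and far below it at 20 µM T5 and T4, and its trend passed with none (adjusted p 0.0511 with T5, 0.0587 with T4 and 0.228 with CPT). MRPS6, homologue of bacterial S6, was singled out after its values were seen. It had 27.3 FPKM in DMSO and 11.8, 12.7, 16.2, 16.9 and 19.3 FPKM with T5, 13.2, 12.3, 14, 19.3 and 16.8 FPKM with T4, and 9.91, 13.1, 15.3, 16.5 and 17.1 FPKM with CPT. DMSO stood above all 15 treated libraries, the lowest or next to lowest level of each series was at 0.5 µM, and no trend passed. Exons of MRPS6 overlap those of SLC5A3 on the same strand, and in all 34 members shared exon bases with another protein-coding gene, so their levels may include reads of the neighbour.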

How the data were processed

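Per the file headers, the authors deposited FPKM in 1 matrix, a column for each library. The submitters' processing notes name GSNAP, Cufflinks, hg19 and GRCh37. What each was used for, the annotation, filters and strand handling were not given in the sources used here. After 2 inner header lines, 1 incomplete line and 220 identical repeats were left out, 25270 genes remained. FPKM does not keep total depth, which is therefore unknown. Depth relative to DMSO was estimated from the spacing of values under 0.2 FPKM, and no counting interval is given.

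The values of the 10600 genes averaging at least 1 FPKM were taken as log2(FPKM + 1), a scale that shrinks the fold changes of low genes. limma 3.58.1 (R 4.3.3) with a mean-variance trend was run on them, 2-sided, with Benjamini-Hochberg adjustment over all 10600 genes at 0.05. Trends used log2(1 + dose / 0.5 µM) over DMSO and 5 libraries, and matched differences used dose as a block over 10 libraries. With 1 library per dose, and nothing saying that libraries came from separate cultures, p-values measure scatter around a line or a mean difference, which may be technical. The fits were tested on simulated data. Python 3.11.15 with scipy 1.17.1, numpy 2.4.6, pandas 2.3.3 and matplotlib 3.10.9 made the tables and plots.

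The members, gene lists, role groups and motifs were chosen with earlier results of these data known. For each trend and each matched comparison, the 4 highest and 4 lowest called members are named, with the MRPS18 paralogues. Not all of these are given in every library. MRPL44, picked by the rule for peaks, and MRPS6 were added after their values were seen. Other members are named for their role. Spans and exon overlaps come from GENCODE 29 and match 10036 of the tested genes by symbol; promoters come from RefSeq GRCh38.p14. Alternatives were another pseudocount, no filter, median centring, quantile normalization, no variance trend, linear dose, all 16 libraries in 1 fit, no dose block, and each library or dose left out.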

Additional observations from a re-analysis of the deposited data

Results flagged for a closer look

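The differences between compounds named above are listed here because the test of the difference itself passed, each at matched doses in log2(FPKM + 1), with limma adjusted p below 0.05. All 8 genes of T5 minus CPT had the same sign at all 5 doses: MRPL49 at -2.26, MRPS26 at -1.51, MRPL10 at -1.45, MRPL36 at -1.35, MRPS35 at 0.58, MRPL22 at 0.66, MRPL1 at 0.91 and MRPL39 at 1.05.

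For T4 minus CPT the 8 genes, again with 1 sign at all 5 doses, were MRPL49 at -1.77, MRPS26 at -1.45, MRPL10 at -1.38, MRPL36 at -1.37, MRPS35 at 0.87, MRPS27 at 0.97, MRPL39 at 1.05 and MRPL1 at 1.14. This comparison and the one before share the CPT libraries.

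For T5 minus T4 the 8 genes were MRPL49 at -0.49, MRPS27 at -0.47, MRPS18A at -0.31, MRPS35 at -0.29, MRPL51 at 0.16, MRPS17 at 0.19, MRPS24 at 0.19 and MRPL34 at 0.34. None of these 8 passed without the dose block, a fit that ignores the pairing by dose.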

How the results depend on the processing

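Among the 48 values named for single genes, 576 alternatives gave 503 with the same direction and call, 73 that lost the call and 0 that reversed. The 48 values are the largest called changes in these same data, a choice that makes a reversal unlikely. Among all called members, 5 fallers with T5, 4 with T4, 3 with CPT and 1 lower member in T5 minus CPT changed sign on centring. Median centring gave 30, 28 and 28 members rising and 17, 14 and 13 falling with T5, T4 and CPT, and 21 higher and 3 lower in T5 minus T4. A linear dose gave 0 rising with each compound, and 12 falling with T5 and 0 with CPT. No filter on low values, which tests more genes, gave 7 rising with CPT and 1 higher in T5 minus T4. All 16 libraries in 1 fit gave 27 rising with CPT. Without the dose block there were 5 higher and 22 lower in T5 minus CPT, and 0 and 0 in T5 minus T4. Apart from median centring, whose shares of all tested genes are given above, these counts stand without such shares. They show how the counts depend on the setting and are not results about the members. The cause of these shifts was not tested.

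Leaving out 1 library at a time, which leaves 5 libraries in a fit, gave 8 to 16 rising and 25 to 33 falling with T5, 1 to 9 and 24 to 36 with T4, and 0 to 18 and 0 to 26 with CPT. Leaving out 1 dose gave 1 to 8 members higher and 7 to 14 lower in T5 minus T4. These ranges also stand without shares of all tested genes. The other alternatives kept each count within 1.5 times its value. The matched-dose comparisons paired libraries by dose, with dose as the block. Total depth is unknown, so no detection limit is given, and MRPS31 was the only member under 1 FPKM in any library.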
